A study of Drosophila melanogaster with 6 samples.

Results

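The germline piRNA pathway was represented by 10 genes, namely piwi, aub, AGO3, vas, spn-E, tud, krimp, armi, zuc and squ. These genes, and the lists of other genes used below, were chosen by name with earlier results of these data known. All 10 were on the array, with 11 of its 18952 probe sets, and 8 of them were among the 6932 genes with enough signal to be tested. The samples were whole Drosophila melanogaster embryos of 6 to 8 h, kept at 25 °C, with 3 arrays (Affymetrix Drosophila Genome 2.0) from flies carrying the insv[23B] allele of Insensitive and 3 from the wild-type strain w[1118]. Insensitive encodes a nuclear BEN-domain protein that represses transcription and acts in neural precursors. The study compared transcript levels of the 2 genotypes. The labels name no treatment or transgene and do not say whether the embryos were homozygous.

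The piRNA pathway is a small RNA defence that keeps transposable elements silent in the animal germline. Short piRNAs guide Argonaute proteins of the PIWI clade to matching transcripts. In the fly ovary Aubergine and AGO3 cut transposon RNA in turn in the perinuclear nuage, a cycle known as ping-pong, while Piwi enters the nucleus and directs transcriptional silencing. Many of these transcripts and proteins are also loaded into the egg by the mother and gather in the germ plasm, from which the pole cells, the germline precursors, form. A 6 to 8 h embryo consists mostly of somatic cells, and in whole embryos fewer cells of a type and less RNA per cell cannot be told apart.

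Levels are GCRMA values on the log2 scale, on which a difference of 1 is a 2-fold change and 2.2 is the floor that unexpressed probe sets take. A level of 4 was reached by 7821 to 7883 probe sets per wild-type array and by 8295 to 8312 per mutant array. The mutated gene insv read 10.9 on each wild-type array and 4, 3.6 and 4.2 on the mutant arrays, which matches the labels. Bacillus spike-in controls, sequences foreign to the fly, gave less signal on every mutant array than on every wild-type array for all 23 probe sets above the filter, with a median difference of -1.43 on the log2 scale. Handling of the arrays therefore cannot be told apart from genotype, and the main counts are also given on a scale that equalises these controls. That scale takes the mean control level of an array from every gene alike, so all genes share its error. The limma p-values there do not allow for this and can be too small, and the counts called can be too high.

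On the deposited scale the pathway did not move as a unit. The transcripts of piwi, AGO3, krimp and squ were 1.95 to 2.83 times lower in the mutant, aub fell slightly, spn-E was 2.24 times higher, tud rose slightly and zuc did not pass the test. Of the 8 tested genes 5 were lower and 2 higher at a Benjamini-Hochberg adjusted p under 0.05 (limma across 8334 probe sets), beside 41.7% lower and 24.9% higher among all tested genes, so the 7 of 8 pathway genes called stand beside 66.6% of all tested genes. On the spike-in scale 0 were lower by limma (also at an unadjusted p under 0.05) and 4 higher. Nearly the whole array moved up on that scale, with 92.9% of all tested genes called higher and 0.563% lower. At least 2-fold falls were made by 3 of the 8, where 3.3% of all tested genes fell that far, and an at least 2-fold rise by 1 of the 8, where 13.3% rose that far. The median difference of the 8 was -0.60 on the deposited scale, beside -0.13 over all tested genes, and 0.79 beside 1.25 on the spike-in scale. The largest SD within a genotype was 0.26, found for zuc in wild type.

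**Figure D1:**
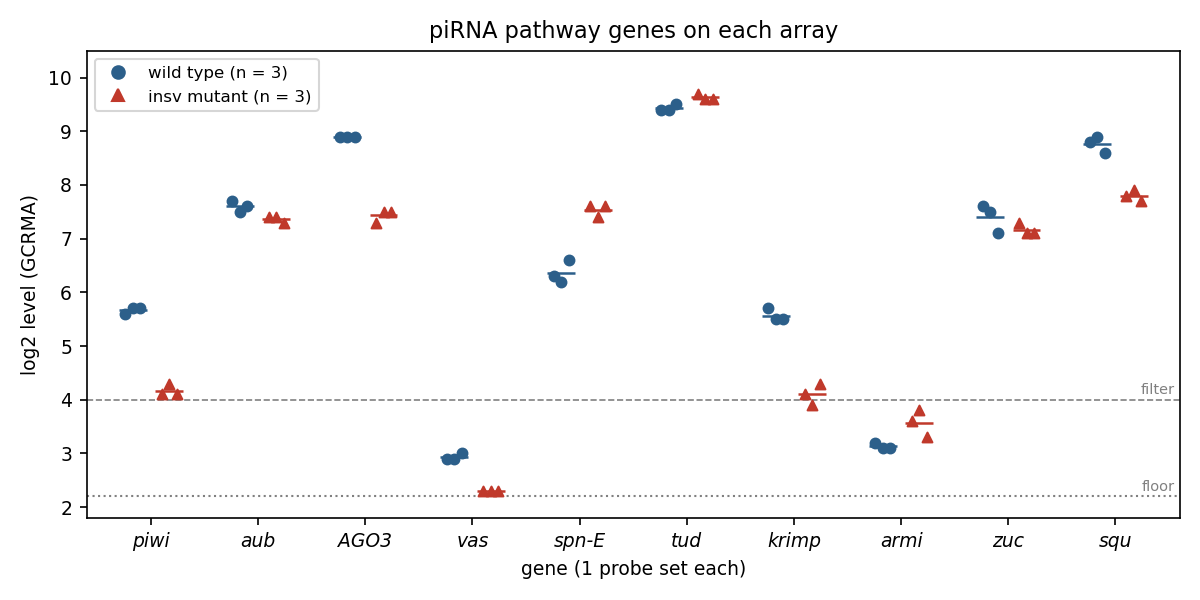
Log2 level (vertical axis) of the uniquely named probe set of each of the 10 genes (horizontal axis) on the 3 wild-type arrays (blue circles) and the 3 mutant arrays (red triangles), with short lines at the means, a dotted line at the floor of 2.2 and a dashed line at the filter of 4. The mutant points of piwi, AGO3, krimp and squ lie clear below the wild-type points, those of spn-E lie clear above, and those of zuc overlap.

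Of the 3 Argonaute genes, piwi encodes the nuclear member. It read 4.1, 4.3 and 4.1 on the mutant arrays and 5.6, 5.7 and 5.7 on the wild-type arrays. All mutant values were lower, and the genotypes were separated by more than 1 log2 unit. The log2 difference was -1.5 ± 0.07 (SE, n = 3 arrays each; limma adjusted p = 3.48e-05), a 2.83-fold lower level, and 1.27% of all tested genes had a difference that low or lower. The mutant values stood near the filter level of 4, and quantile normalization gave piwi a difference of -2.05.

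AGO3, which in ovaries binds mostly sense piRNAs, read 7.3, 7.5 and 7.5 in the mutant and 8.9 on each wild-type array. No wild-type value came within 1 log2 unit of a mutant value. Its difference was -1.47 ± 0.06 (SE, n = 3 arrays each; limma adjusted p = 2.65e-05), a 2.76-fold lower level.

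The third Argonaute gene, aub, whose protein is the ping-pong partner of AGO3, differed far less. It read 7.4, 7.4 and 7.3 in the mutant and 7.7, 7.5 and 7.6 in wild type. The groups did not overlap, but the highest mutant and the lowest wild-type value were 1 rounding step apart. The difference of -0.23 ± 0.06 (SE, n = 3 arrays each; limma adjusted p = 0.0218) lay within the range common to genes in general, since 35.8% of tested genes were that low or lower. The call was lost after centring each array on its median (adjusted p = 0.116), and leaving out mutant replicate 1, 2 or 3 or wild-type replicate 3 ended it as well (adjusted p = 0.0521 to 0.0686).

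The change of AGO3 can be set against that of aub on the same arrays, where any shift common to an array cancels. The AGO3 change was more negative than the aub change by 1.23 log2 units, and the piwi change was more negative than the aub change by 1.27. In neither pair did the genotypes overlap (exact two-sided permutation p = 0.1 for each, the smallest that 3 against 3 arrays can give, and 0.127 adjusted over the 28 pairs of tested genes). On the deposited scale the changes of piwi and AGO3 differed by only -0.03, with overlapping arrays (exact permutation p = 1). Quantile normalization set them further apart, with differences of -2.05 for piwi and -1.43 for AGO3. Over all 28 pairs, the changes of 22 separated the genotypes without overlap, where 69% of all pairs of tested genes did so. A difference between changes says that 2 transcripts changed unequally, and not which of them stayed the same.

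Of the helicase genes among the members, spn-E, of the nuage, was the only 1 that reached the filter, and it rose. Spindle-E is a DExH-box helicase with a Tudor domain that is needed for ping-pong piRNAs. Its probe set read 7.6, 7.4 and 7.6 in the mutant and 6.3, 6.2 and 6.6 in wild type, so that all mutant values were higher. The difference was 1.17 ± 0.12 (SE, n = 3 arrays each; limma adjusted p = 0.000786), a 2.24-fold higher level, and 12.2% of all tested genes rose that far or further. The rise was larger on the spike-in scale, at 2.55. As the tested member of largest rise, spn-E changed upward relative to each of the other 7, by 0.97 (against tud) to 2.67 (against piwi). The genotypes did not overlap in any of these pairs (exact permutation p = 0.1 for each, 0.127 adjusted over the 28 pairs). Among all pairs of tested genes 69% did not overlap either.

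The other nuage helicase gene, vas, was close to the floor, although Vasa is a defining protein of germ cells. Its uniquely named probe set read 2.3 on each mutant array and 2.9, 2.9 and 3 on the wild-type arrays. The second, which is also assigned to wwk, read 2.2 on every array. Neither reached the filter, so vas was not tested with the other genes. Without a filter the first probe set had a difference of -0.63 (limma adjusted p = 0.000473), at levels where a difference from the floor is understated. The low vas signal limits how far the label of a germline pathway can be checked against this germ cell marker.

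Tudor-domain proteins bind methylated arginines of PIWI proteins and organise the nuage and germ plasm. Beside spn-E, described above, the members that encode Tudor-domain proteins were krimp and tud, which moved in opposite directions on the deposited scale. The krimp gene, whose protein gathers Aubergine and AGO3, read 4.1, 3.9 and 4.3 in the mutant and 5.7, 5.5 and 5.5 in wild type. All mutant values were lower by more than 1 log2 unit. The difference was -1.47 ± 0.12 (SE, n = 3 arrays each; limma adjusted p = 0.000296), a 2.76-fold lower level, and it was -2.04 after quantile normalization.

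The tud gene, whose protein is a scaffold of polar granules in the germ plasm, read 9.7, 9.6 and 9.6 in the mutant and 9.4, 9.4 and 9.5 in wild type. The groups were 1 rounding step apart. Its difference was 0.20 ± 0.05 (SE, n = 3 arrays each; limma adjusted p = 0.0135), and 25.6% of tested genes were as high or higher. The krimp change was more negative than the tud change by 1.67, with no overlap of the genotypes (exact permutation p = 0.1, adjusted p = 0.127 over the 28 pairs).

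Armitage, Zucchini and Squash act in making piRNAs. Armitage is an RNA helicase that brings precursors to mitochondria, Zucchini is the nuclease on the mitochondrial surface that cuts them, and Squash is a nuage protein needed for normal piRNA levels. The armi probe set read 3.6, 3.8 and 3.3 in the mutant and 3.2, 3.1 and 3.1 in wild type, under the filter on every array. It was not tested with the other genes, and without a filter its difference of 0.43 had a limma adjusted p of 0.116.

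For zuc the values were 7.3, 7.1 and 7.1 in the mutant and 7.6, 7.5 and 7.1 in wild type. The groups overlapped because wild-type replicate 3 stood as low as the mutant. The difference of -0.23 ± 0.15 (SE, n = 3 arrays each; limma adjusted p = 0.217) did not pass, but it was -0.38 and passed without wild-type replicate 3 (adjusted p = 0.0238), and it was -0.43 and passed when arrays were weighted by their quality (adjusted p = 0.00701). The zuc result therefore turned on 1 array.

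The squ gene read 7.8, 7.9 and 7.7 in the mutant and 8.8, 8.9 and 8.6 in wild type. All mutant values were lower. Its difference was -0.97 ± 0.10 (SE, n = 3 arrays each; limma adjusted p = 0.000616), a 1.95-fold lower level, and 3.62% of tested genes were that low or lower. Just under 2-fold, it was the fourth of the marked falls beside piwi, AGO3 and krimp.

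**Figure D2:**
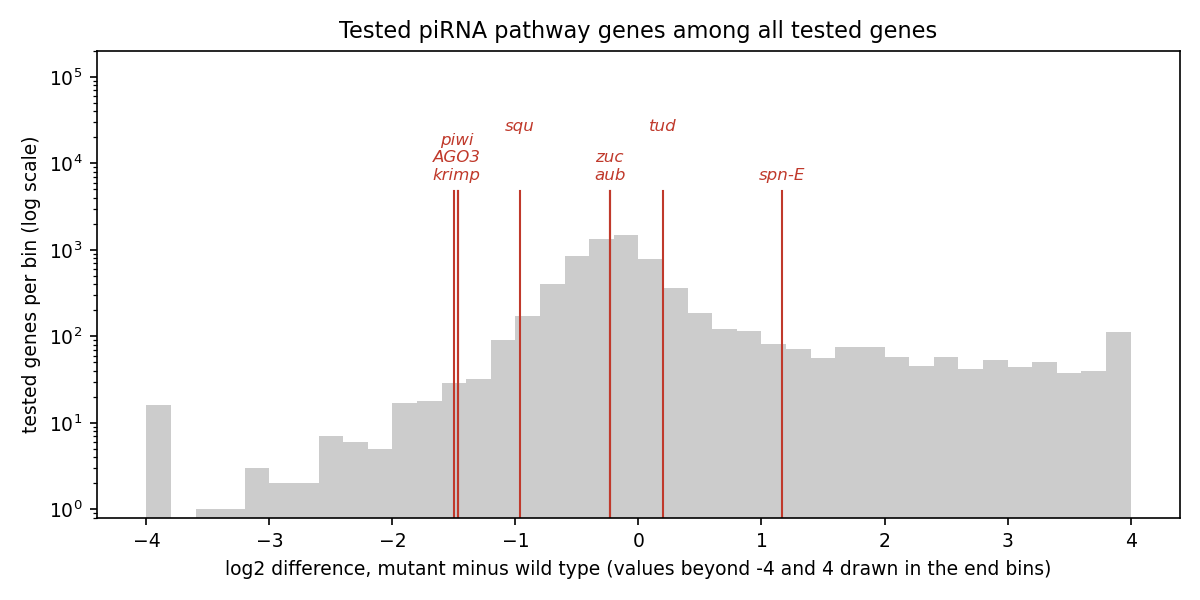
Number of tested genes (vertical axis, log scale) by log2 difference between mutant and wild type (horizontal axis), with the 8 tested piRNA pathway genes as red lines. The lines for piwi, AGO3 and krimp, at -1.5 to -1.47, stand in the thin lower tail, aub and zuc at -0.23 stand at the peak, and spn-E at 1.17 stands on the broad upper shoulder.

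These directions depend on the scale. Quantile normalization and centring on the median left the direction of all 8 genes as it was. The first gave 5 lower and 2 higher, beside 42.3% and 24.9% of all tested genes, and the second 4 lower and 2 higher, beside 29.8% and 30.9%. On the spike-in scale, which takes out the mean control difference of -1.39 from every gene alike, piwi had a difference of -0.11, AGO3 and krimp of -0.08 each (limma adjusted p = 0.732, 0.808 and 0.808), and squ of 0.42 (adjusted p = 0.21). On that scale aub and zuc turned higher at 1.15 each (limma adjusted p = 0.000735) and tud stood at 1.59. The controls subtracted are the same for every gene, and limma gave all 8 genes the same SE of 0.33. The p-values on this scale can therefore be too small. Because the same amount is taken from every gene, the order of the genes among themselves cannot change there. It has piwi lowest and spn-E highest.

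**Figure D3:**
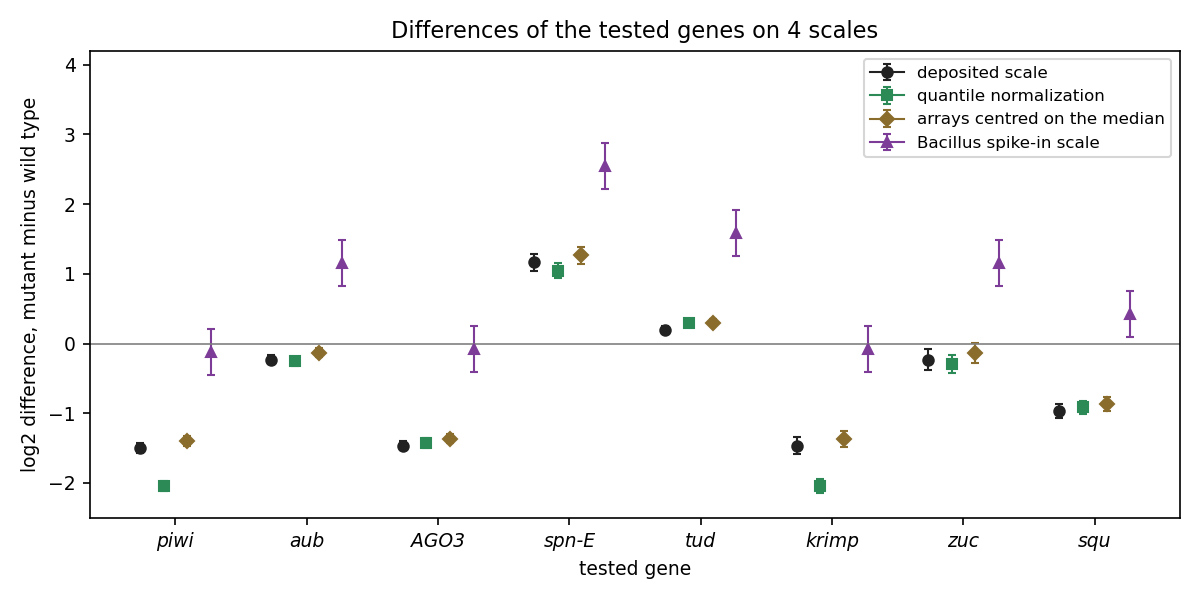
Log2 difference between mutant and wild type (vertical axis) of the 8 tested genes (horizontal axis) on 4 scales, with bars of 1 SE from limma (n = 3 arrays per genotype). On the first 3 scales piwi, AGO3, krimp and squ lie below 0 and spn-E above it, and on the spike-in scale every gene lies higher, with piwi, AGO3 and krimp near 0 and spn-E at 2.55.

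The members lay on 4 chromosome arms. The annotation places piwi, aub, vas, zuc and squ on arm 2L, which also carries insv, tud and krimp on 2R, AGO3 and armi on 3L, and spn-E on 3R. Of the tested genes on 2L 43.5% were called lower, beside 33.3% to 42.2% on the other arms, and the median size of the difference was 0.33 on 2L and 0.30 to 0.33 elsewhere. Only 2 annotated genes lie between piwi and aub. Of these, both looked up for their position, CG12253 fell by 0.60 (limma adjusted p = 0.000248) and TTLL4A had a difference of 0.07 (adjusted p = 0.385), so that the marked fall of piwi was next to genes with smaller differences. On the deposited scale, the values of each tested gene were also taken from its own wild-type mean. The genes whose 6 values then ran most like those of piwi were AGO3 (Euclidean distance of 0.191 on the log2 scale), CG30428 (0.2) and CG31875 (0.2). CG30428 had a difference of -1.57 and CG31875 of -1.43.

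Beyond the members, 45 further genes of the pathway, grouped into cluster transcription and export, nuage and loading, and nuclear silencing, were measured and 41 tested. Of these 41, 24 fell and 2 rose on the deposited scale, beside 41.7% lower and 24.9% higher among all tested genes. On the spike-in scale 35 were called higher and 1 lower, beside 92.9% and 0.563% of all tested genes. Their median difference was -0.23, beside -0.13 over all tested genes. At least 2-fold falls were made by 5 of the 41, namely moon, BoYb, qin, tej and SoYb, where 3.3% of all tested genes fell that far, and the probe sets of moon and qin reached the filter only on wild-type arrays.

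The largest of these falls was that of moon. Moonshiner is a relative of a basal transcription factor subunit that starts transcription at piRNA clusters marked by the Rhino complex. It read 3.5, 3.6 and 3.5 in the mutant and 6.5, 6.6 and 6.4 in wild type, without overlap. The difference was -2.97 ± 0.06 (SE, n = 3 arrays each; limma adjusted p = 2.65e-06), a 7.82-fold lower level. On the spike-in scale moon was the 1 gene of the wider pathway called lower (-1.58, limma adjusted p = 6.44e-06). That p-value can be too small, because all genes share the error of the control means. Like qin, moon could be tested only because it was higher in wild type.

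The genes for the Rhino complex itself moved little. The rhi gene, for the chromatin protein that marks the clusters, had a difference of -0.23 (limma adjusted p = 0.0218), and those of its partners del (0.10) and cuff (0.03) did not pass. All 3 were looked up for their link to moon. In the export group, thoc5 (-0.57), Hpr1 (-0.43) and tho2 (-0.23), subunits of the THO complex that packages nascent RNA, fell by less than 2-fold. This group had 8 of 11 genes lower and a median of -0.27, with 0 higher by limma, also at an unadjusted p under 0.05. Of all tested genes 41.7% were lower and 24.9% higher. After median centring 3 were lower and 1 higher, beside 29.8% and 30.9% of all tested genes. On the spike-in scale 1 was lower and 10 higher, beside 0.563% and 92.9%.

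In the nuage and loading group 10 of 19 genes fell and 2 rose, beside 41.7% and 24.9% of all tested genes, with a median of -0.20. After median centring 6 fell and 3 rose, beside 29.8% and 30.9% of all tested genes. On the spike-in scale 0 fell and 14 rose, beside 0.563% and 92.9%. The at least 2-fold falls here were those of BoYb, qin, tej and SoYb, whose proteins carry Tudor domains. Other Tudor-domain genes of the group, looked up for that domain, did not fall that far, with Tdrd3 at -0.40 (limma adjusted p = 0.00464), papi at -0.03 (adjusted p = 0.55), Veneno at 0.13 (adjusted p = 0.0514) and vret higher. BoYb, a germline relative of the somatic piRNA factor Yb, read 4.1, 4.1 and 4.3 in the mutant and 6.2, 6.1 and 6.2 in wild type, a difference of -2.0 ± 0.07 (SE, n = 3 arrays each; limma adjusted p = 1.28e-05). Its relative SoYb, singled out after its value was seen, had a difference of -1.63 (limma adjusted p = 0.000552), and the probe set of Yb itself, fs(1)Yb, lay at the floor of 2.2 on every array.

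Tejas, which works with Vasa and Spindle-E in the nuage, showed the opposite direction to spn-E. The tej probe set read 6.1, 5.9 and 5.9 in the mutant and 7.8, 7.9 and 8 in wild type, a difference of -1.93 ± 0.08 (SE, n = 3 arrays each; limma adjusted p = 2.46e-05). For qin, whose protein keeps ping-pong running between Aubergine and AGO3, 1 probe set read 3.3, 3.7 and 3.1 in the mutant and 5.4, 5.3 and 5.4 in wild type. The other qin probe set read 2.2 on every array, so the fall of -2.0 (limma adjusted p = 0.00027) rests on 1 probe set. The fall of mael, needed for silencing by Piwi in the nucleus, was smaller at -0.73 (limma adjusted p = 4.71e-05). The 2 that rose were vret (0.40, limma adjusted p = 0.0105), a Tudor-domain factor, and mino (0.30, adjusted p = 0.00595), a mitochondrial acyltransferase relative, both named after their values were seen.

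Nuclear silencing factors, which act with Piwi on chromatin, showed only small differences. Of 11 tested 6 fell and 0 rose by limma (8 and 1 at an unadjusted p under 0.05), with a median of -0.30. Of all tested genes 41.7% were lower and 24.9% higher. With the spike-in controls equalised 11 of 11 were higher, as were 92.9% of all tested genes. None of the 6 fell 2-fold, where piwi itself did. The nxf2 gene, for a partner of Panoramix in silencing, fell by 0.53 (limma adjusted p = 0.00111), the gene for heterochromatin protein HP1a by 0.30 (adjusted p = 0.00595), CoRest, for a corepressor scaffold, by 0.47 (adjusted p = 0.000248) and HDAC1, for a histone deacetylase, by 0.33 (adjusted p = 0.000882).

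**Figure D4:**
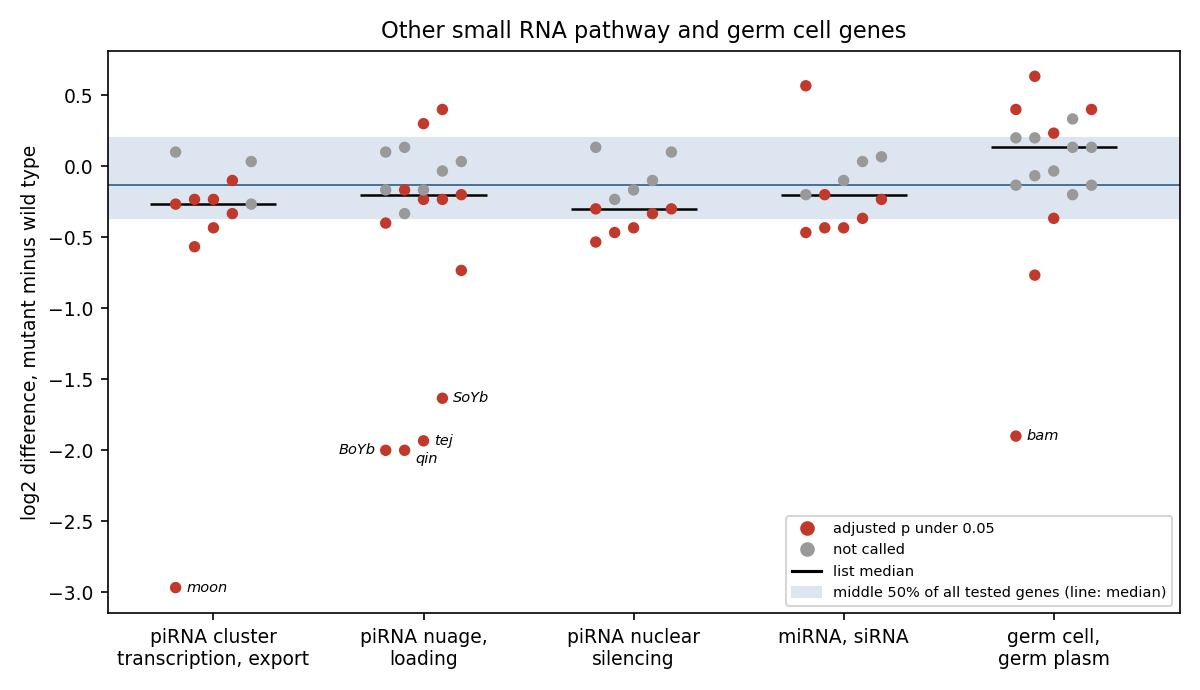
Log2 difference between mutant and wild type (vertical axis) of each tested gene in 5 lists (horizontal axis), red where the limma adjusted p was under 0.05 and grey otherwise, with black lines at list medians and a blue band over the middle 50% of all tested genes (-0.37 to 0.20, line at -0.13). Most points lie near the band, and moon, BoYb, qin, tej, SoYb and bam stand far below it.

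The miRNA and siRNA pathways, which use other Argonaute proteins and work in somatic cells as well, showed no 2-fold change among 11 tested genes. On the deposited scale 6 were lower and 1 higher, beside 41.7% and 24.9% of all tested genes, with a median of -0.20. All 11 were higher on the spike-in scale, where 92.9% of all tested genes were. Those with the smallest adjusted p were r2d2 (-0.43) and loqs (-0.43), which encode Dicer partners, Fmr1 (0.57) and vig (-0.47). Differences of this size are common in these arrays, and the contrast with the falls of piwi and AGO3 was not tested.

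Germ cell genes went both ways. Of 17 tested genes of germ cells and germ plasm 4 rose and 3 fell, beside 24.9% and 41.7% of all tested genes, with a median of 0.13. After quantile normalization 7 were lower, beside 42.3% of all tested genes. On the spike-in scale 15 were higher and 0 lower, beside 92.9% and 0.563%. The osk gene, for the organiser of germ plasm, rose by 0.63 (limma adjusted p = 8.08e-05), and its other probe sets gave 0.43 (adjusted p = 0.0133) and 0.17 (adjusted p = 0.224). The rise of wun, which guides germ cell migration, was 0.40 (adjusted p = 0.00111). The fall of bam, a differentiation factor of adult germ cells, was -1.90 (limma adjusted p = 0.000331), and that of smg, a translational repressor of maternal mRNA, -0.77 (adjusted p = 0.000298). Over the 7 measured genes of 10 primordial germ cell markers, which include vas and tud, the mean log2 level was 6.96 to 7.01 on mutant arrays and 6.86 to 6.91 on wild-type arrays, with stil and vas near the floor. Over 6 measured of 8 markers of somatic gonad precursors it was 7.28 to 7.37 and 7.42 to 7.57, with tj at 2.2 on every array. The tested genes of the somatic gonad list had 3 of 7 lower, namely Sox100B (-0.57), upd1 (-0.53) and eya (-0.30), and 0 higher by limma (4 and 0 at an unadjusted p under 0.05). Of all tested genes 41.7% were lower and 24.9% higher. All 7 were higher on the spike-in scale, as nearly all tested genes were.

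Transcripts loaded by the mother, as those of the piRNA pathway are, went both ways, as did tested genes in general. Of 20 tested maternal genes 8 fell and 4 rose, beside 41.7% and 24.9% of all tested genes, with a median of -0.05. After median centring 7 fell and 7 rose, beside 29.8% and 30.9% of all tested genes. On the spike-in scale 1 fell and 16 rose, beside 0.563% and 92.9%. The bcd gene, for the anterior determinant Bicoid, fell by 1.2 (limma adjusted p = 1.95e-05), while mtrm, a meiotic inhibitor of Polo kinase, rose by 1.33 (adjusted p = 5.91e-06), spz, a Toll ligand, by 1.07 (adjusted p = 1.26e-05) and egl, an RNA transport factor, by 2.3 (adjusted p = 1.65e-05). At least 2-fold changes were made by 4 genes in each direction, where 3.3% of all tested genes fell and 13.3% rose that far. The others of this size, named after their values were seen, were falls of plu, a cell cycle regulator of the early embryo (-3.13, limma adjusted p = 0.000166), tor, the receptor of the terminal system (-1.47, adjusted p = 2.65e-05), and twe, a meiotic Cdc25 phosphatase (-1.33, adjusted p = 0.00165), and a rise of dl, the dorsoventral morphogen (1.57, adjusted p = 6.65e-05), which reached the filter only on mutant arrays. These counts take 1 probe set per gene. For Tl, singled out after its values were seen, the probe set that was counted gave -0.10 (limma adjusted p = 0.251). Another Tl probe set of lower level gave -3.47 (limma adjusted p = 0.000224). How these lists differ from the piRNA pathway genes was not tested.

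Most genes of differentiated somatic tissues differed strongly between the genotypes. Higher in the mutant were 9 of 9 tested muscle genes, 14 of 14 cuticle and epidermal genes and 7 of 8 neuronal genes, beside 24.9% of all tested genes (all 8 neuronal genes on the spike-in scale, beside 92.9%, and 13 cuticle and epidermal genes higher and 1 lower after quantile normalization, beside 24.9% and 42.3%). Of these, 4 cuticle and epidermal genes (Cpr56F, Osi9, TwdlE and obst-B) and 2 neuronal genes (ChAT and cac) reached the filter only on mutant arrays, so they could be tested only because they were higher there. The mean log2 level over the 4 measured muscle markers was 10.3 to 10.4 on mutant arrays and 7.03 to 7.08 on wild-type arrays. It was 10.2 and 6.38 to 6.42 over 4 cuticle markers, and 7.70 to 7.78 and 5.40 to 5.54 over 5 neuronal markers. Of these 5, elav, the 1 neuronal gene not called, had means of 12.1 in the mutant and 12.2 in wild type (limma adjusted p = 0.385). With nSyb near the floor (means of 2.73 and 2.37), the rise of the neuronal mean came mostly from Gad1, Rab3 and cpx. The log2 differences of the genes with the smallest adjusted p were 4.17 for Mf, 3.47 for Mlc1, 3.43 for TpnC73F and 2.97 for Prm in the muscle list, genes of the contractile apparatus. They were 4.87 for TwdlN, 3.90 for TwdlM, 3.67 for Cpr56F and 2.73 for Osi6 in the cuticle list, and 3.87 for Gad1, 3.63 for Rab3, 3.47 for cpx and 3.37 for nrv3 in the neuronal one. These rises ran opposite to the falls of piwi, AGO3, krimp, squ and aub on the same arrays, while spn-E and tud rose as well. Their part in those falls was not tested.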

How the data were processed

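The deposited table held GCRMA output on the log2 scale, computed by the authors (per the submitters' processing notes); version and options are not given in the sources used here. They ran from 2.2 upward with 1 decimal. Probe sets were named through the platform annotation, with symbols updated for 13544 of 13647 uniquely named probe sets from RefSeq (Release 6 plus ISO1 MT, used for names, chromosome arms and gene order). Non-control probe sets with a level of at least 4 on at least 3 of 6 arrays, whatever the genotype, were tested (8334), and a gene was represented by its probe set of highest mean level. The genotypes were compared by limma 3.58.1 under R 4.3.3 (lmFit, eBayes, no block), and p-values were adjusted over all tested probe sets. The test was checked on simulated data with known changes.

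The members and lists were chosen with earlier results of these data known. Genes named are the members, up to 4 genes of smallest adjusted p from each list (2 of highest level where none was called), insv, and the 3 nearest in pattern to the member of largest difference; others are marked. The labels do not say whether replicates were separate collections, so p-values reflect the spread among these arrays alone, possibly technical. No 2 arrays were identical (at most 43.1% equal values within a genotype), and the number of arrays limits the precision. Every column belonged to a labelled sample. Same-numbered arrays of the genotypes deviated from their group means with correlations of 0.166, -0.0145 and 0.271, so the numbers were not taken to pair them. Transposable elements and members of lists without a uniquely named probe set, among them nos, pgc, AGO1 and AGO2, were not analysed here. Alternatives tried were testing all probe sets, a filter at 6, quantile normalization, median centring, a Bacillus spike-in scale, trend and robust priors, array weights, a replicate block, each array left out in turn, a minimum fold of 1.2, and averaging the probe sets of each gene.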

Additional observations from a re-analysis of the deposited data

How the results depend on the processing

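Apart from the spike-in scale, the calls of AGO3, spn-E and squ held in all 16 other alternatives and those of piwi and krimp in all 15 in which they were tested (a filter at 6 removes both), while aub kept its call in 8 of 16 and tud in 14 of 16. On the spike-in scale aub (1.15), zuc (1.15), squ (0.42) and the median of the tested members (0.79) reversed, 4 members were higher and 0 lower, and 35 genes of the wider pathway were higher and 1 lower. Of all tested genes 92.9% were higher and 0.563% lower there. The counts on that scale can be too high, because all genes share the error of the control means. With the replicate number as a block, 1 member was higher, aub and tud missing the threshold narrowly (adjusted p = 0.0501 and 0.0506), and 5 wider genes were higher; the labels do not say that the numbers pair the arrays. A minimum fold of 1.2 left 1 member higher, and 0 higher and 9 lower wider genes. The filter at 6 left 3 members lower with a median of -0.23, because fewer genes were tested, and 4 wider genes higher. Median centring gave a member median of -0.50, and 6 wider genes higher and 14 lower, beside 30.9% and 29.8% of all tested genes. Quantile normalization gave 4 wider genes higher, beside 24.9% of all tested genes. Array weights gave 5 higher, with a member median of -0.71. Leaving out single arrays gave member medians of -0.72 to -0.56, 4 to 5 members lower and 2 higher, and 2 to 4 wider genes higher and 20 to 24 lower. Over all probe sets a minimum fold of 1.2 called 2804 in place of 5459, with 1426 higher and 1378 lower in place of 2055 and 3404. Median centring called 2581 higher and 2434 lower, the filter at 6 1595 and 3167. The replicate block called 2010 higher and 3224 lower, array weights 2361 and 4139. Leaving out single arrays called 4710 to 5713 in all. Apart from the normalization scales, shares of tested genes were not worked out for these settings, so the pathway counts there have no share beside them. Where no cause is stated it was not tested. Levels near the floor limit what can be said of vas and armi.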
